A study of Rattus norvegicus with 8 samples.

Results

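The 8 genes described here are those of neutrophils and of the chemokines that attract them: the chemokine ligands Cxcl1 and Cxcl2, the calcium-binding proteins S100a8 and S100a9, the receptors Csf3r and Il1r2, and the granule enzymes Mmp8 and Mpo. They are a list of names, to which no threshold on a measured value was applied, out of 35535 gene or transcript names with a probe on the array. All 8 had at least 1 probe, and 6 of them were bright enough to be tested among 24461 genes. Mmp8 and Mpo were not.

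RNA came from rat kidney allografts taken 24 h after transplantation and was measured on 1-colour Agilent arrays, 1 array for each graft. Donors were Dark Agouti rats (RT1a) and recipients were male Lewis rats (RT1l) without kidneys of their own, so every graft met a foreign major histocompatibility complex. Rats weighed 120 to 250 g, their ages are not given in the sources used here, and every donor kidney was cooled with University of Wisconsin solution and held at 4 °C for 25 min. Donors of high-difference grafts were 20 to 50% lighter than the animals that took their kidneys, and donors of low-difference grafts 0 to 20% lighter. In another group recipients had high-difference grafts and received 500 µg of a neutralizing anti-IL6R antibody intravenously, and in the last group they had high-difference grafts and received prednisolone, a glucocorticoid, at 15 mg/kg intravenously. Both agents were given once, right after surgery. Each group had 2 biological replicates, and no ungrafted or syngeneic kidney was analysed here, so every level below is that of an allograft.

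Neutrophils are short-lived white blood cells made in the bone marrow, and they are among the first cells to enter a reperfused graft. CXCL1 and CXCL2 are released by injured epithelium, endothelium and macrophages and draw neutrophils in through the receptor CXCR2. S100A8 and S100A9 pair up as calprotectin, which fills the cytosol of neutrophils and is also made by monocytes. The receptor for granulocyte colony-stimulating factor (CSF3R) sustains neutrophil production and survival, IL1R2 is a decoy receptor that takes up interleukin-1 without signalling, and MPO and MMP8 are granule enzymes whose messages are made mainly in marrow precursors.

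In the GRCr8 gene table of RefSeq, Cxcl1 and Cxcl2 are neighbours on chromosome 14, and S100a8 and S100a9 are neighbours on chromosome 2. The promoters of the 3 members whose arrays did not overlap between high-difference and low-difference grafts are shown here, each as the 250 bases before and the 50 bases after the RefSeq start, 5′ to 3′ on the gene's own strand, which is the minus strand for each. Capitals mark matches to the NF-kB consensus or to the C/EBP motif TTGCNNAA, both searched on both strands. Of 33469 rat promoters of that length, 7.51% hold the NF-kB consensus and 10.6% the C/EBP motif.
Cxcl1, GRCr8 chr14:17479272-17479571: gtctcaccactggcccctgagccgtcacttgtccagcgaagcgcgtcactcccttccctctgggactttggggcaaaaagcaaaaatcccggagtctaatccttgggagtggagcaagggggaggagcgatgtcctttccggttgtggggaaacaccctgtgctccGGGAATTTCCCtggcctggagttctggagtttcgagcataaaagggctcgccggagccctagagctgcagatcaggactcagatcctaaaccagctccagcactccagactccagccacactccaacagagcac
Cxcl2, GRCr8 chr14:17467206-17467505: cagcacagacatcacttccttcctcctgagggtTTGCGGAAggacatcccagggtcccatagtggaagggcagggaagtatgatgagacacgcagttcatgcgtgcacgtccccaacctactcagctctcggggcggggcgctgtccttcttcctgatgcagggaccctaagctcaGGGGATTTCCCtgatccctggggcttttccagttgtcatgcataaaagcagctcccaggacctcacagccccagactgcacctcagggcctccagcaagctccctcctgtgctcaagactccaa
S100a9, GRCr8 chr2:178490573-178490872: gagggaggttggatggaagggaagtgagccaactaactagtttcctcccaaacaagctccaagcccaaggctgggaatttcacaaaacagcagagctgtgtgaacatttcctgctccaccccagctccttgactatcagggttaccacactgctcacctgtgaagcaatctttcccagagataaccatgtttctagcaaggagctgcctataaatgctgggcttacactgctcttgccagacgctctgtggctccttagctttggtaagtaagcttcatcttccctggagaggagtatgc
In the Cxcl1 promoter the NF-kB consensus matched at 2 overlapping places, starting 84 and 83 bases before the start. The Cxcl2 promoter held 2 overlapping matches as well, starting 74 and 73 bases before the start, and a C/EBP match that started 217 bases before it. The S100a9 window held a match to neither motif. Among the members not shown, the Csf3r and Mpo windows held no match either, and that of Mmp8 held 2 C/EBP matches, starting 101 and 46 bases before the start. These are matches of letters and were not tested as binding sites.

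Levels are log2 values of the processed signal relative to the 75th percentile of the same array, so 0 stands for that percentile and each step of 1 for a doubling. Between 64.5% and 74% of gene spots were well above background on each array. All 9 kidney marker genes checked were above background on all 8 arrays. Both high-difference and both low-difference arrays were on 1 slide, and the anti-IL6R and prednisolone arrays were on the other, so treatment and slide cannot be told apart in the comparisons with untreated grafts. The high-to-low and the anti-IL6R-to-prednisolone comparison each lay within 1 slide. The prednisolone replicates stood apart from each other over all genes, with a median absolute gap of 0.43 log2 units against 0.22 to 0.28 in the other groups.

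Cxcl1 was well above background on all 8 arrays. Its level was -0.76 and 0.44 in the high-difference grafts, -2.00 and -1.32 in the low-difference grafts, -0.63 and -0.79 under anti-IL6R, and 0.49 and -3.36 under prednisolone. Both high-difference arrays were above both low-difference arrays, and the prednisolone pair held the highest and the lowest of the 8 values, which lay 14.3-fold apart.

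Cxcl2, the closely related ligand, had levels of -2.62 and -3.73 in the high-difference grafts, -4.71 and -4.39 in the low-difference grafts, -2.88 and -3.61 under anti-IL6R, and -1.94 and -6.40 under prednisolone. The second prednisolone array was the only one on which its probe was not well above background. Again the high-difference arrays were above the low-difference arrays and the prednisolone pair spanned all others.

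S100a9 was well above background on all 8 arrays. Its level was -1.60 and -2.47 in the high-difference grafts, -3.29 and -2.95 in the low-difference grafts, -1.23 and -2.19 under anti-IL6R, and 0.40 and -3.18 under prednisolone. The high-difference arrays were above the low-difference ones, and the anti-IL6R arrays interleaved with the high-difference ones.

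S100a8, its partner, was measured by a RefSeq probe at -3.31 and -4.77 in the high-difference grafts, -4.60 and -4.08 in the low-difference grafts, -2.19 and -3.09 under anti-IL6R, and -0.38 and -4.68 under prednisolone. Here the high-difference and low-difference arrays overlapped, and both anti-IL6R arrays were above both high-difference arrays. Of the 3 probes named for S100a8, the other 2 were designed on an expressed sequence tag listed in the opposite direction, and they were not well above background except for 1 of them on the first prednisolone array.

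Il1r2 had levels of -2.77 and -4.55 in the high-difference grafts, -5.19 and -3.24 in the low-difference grafts, -2.84 and -3.25 under anti-IL6R, and -1.69 and -5.48 under prednisolone. All groups overlapped with the high-difference group. The Il1r2 probe was not well above background on the second prednisolone array.

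Csf3r was near the detection limit. Its probe was not well above background on the 4 arrays of the high-difference and low-difference grafts, at -6.77, -7.52, -6.86 and -5.97. It was well above background on both anti-IL6R arrays, at -5.50 and -5.40, and on the first prednisolone array at -4.87, but not on the second at -7.36. No fold is given for Csf3r against the untreated groups, because the bound set by the dimmest measurable probes was under 1.

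Of the granule enzymes, Mpo was not well above background on any of the 8 arrays, with values from -8.39 to -7.30 that have no order. Mmp8 was measured on 1 array only, the first prednisolone array, at -4.42, and its other 7 values lay between -8.17 and -6.86 at background. Both had too few measured arrays to be tested.

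**Figure D1:**
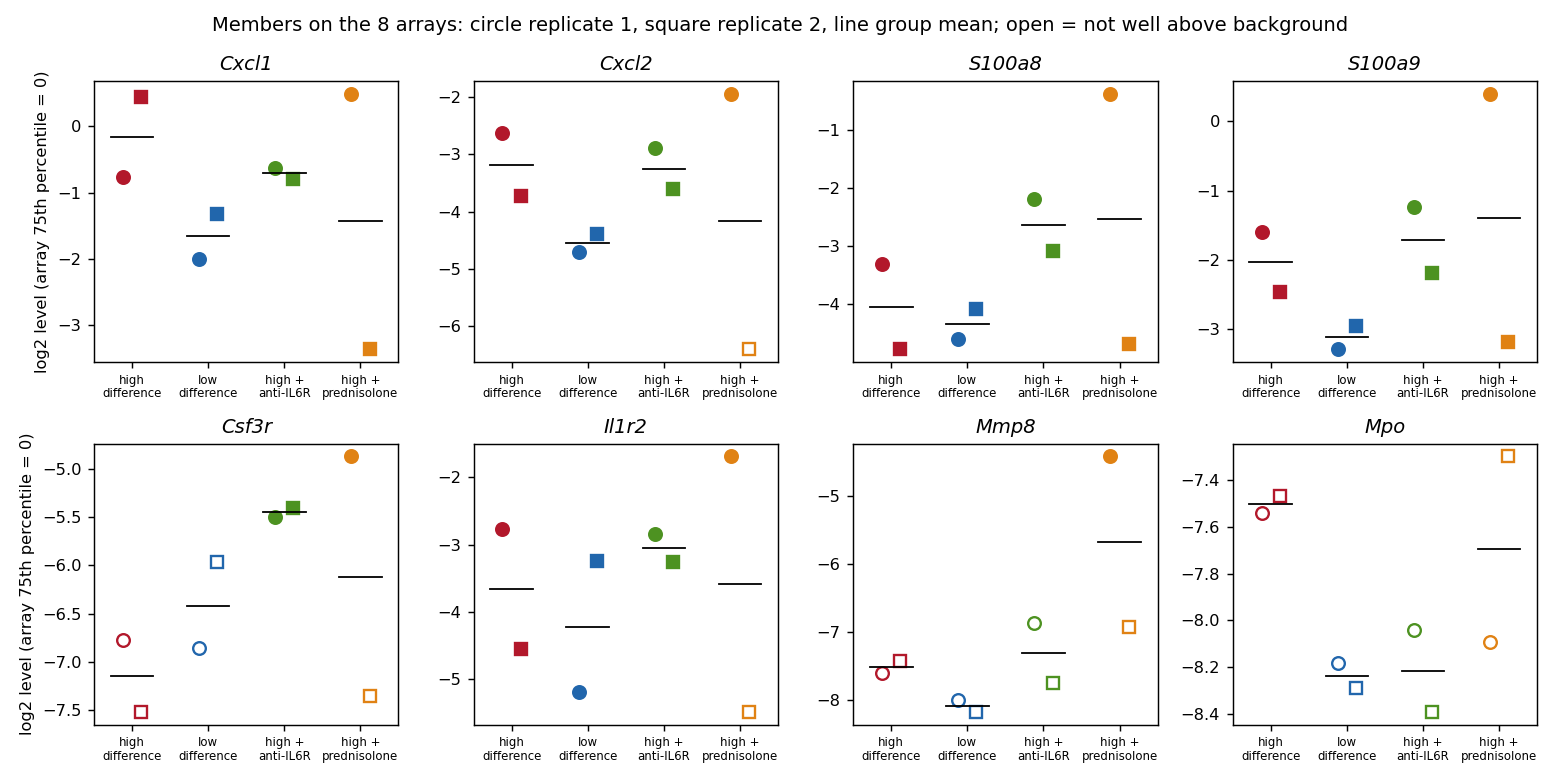
Log2 level of each of the 8 genes (vertical axis, relative to the array's 75th percentile) on each of the 8 arrays, by group, with filled points for probes well above background and open points for the rest. Cxcl1, Cxcl2 and S100a9 are higher on both high-difference arrays than on both low-difference arrays, and the first prednisolone array is the highest for all 6 tested genes.

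The gap between the prednisolone replicates was shared by all 6 tested genes. The first array exceeded the second by 11.9-fold for S100a9, 14.3-fold for Cxcl1 and 19.7-fold for S100a8, which were measured on both. Cxcl2, Il1r2 and Csf3r were not well above background on the second array, and against its dimmest measurable probe the first was at least 9.07-fold higher for Cxcl2, at least 10.8-fold for Il1r2 and at least 1.19-fold for Csf3r. On the log2 scale the measured gaps ran from 2.50 to 4.47. Among all 24461 genes, 2.71% had the first prednisolone array above the second by more than 2 log2 units. In no other group did any of the 6 genes differ by more than 2 between replicates, and their median absolute gap was 1.16 in high-difference, 0.60 in low-difference and 0.57 in anti-IL6R grafts, against 3.82 under prednisolone. The first prednisolone array was the highest of the 8 for 7 of the 8 genes, Mpo being the other one, and the second was the lowest for 3 of the 6 tested genes.

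The gap moved with markers of other cells. The summed linear level of the 11 tested monocyte, macrophage and dendritic cell markers was 87.7 on the first prednisolone array and 20.6 on the second, and that of 11 T and NK cell markers was 2.15 and 0.798. All 11 of each list were higher on the first array, and the monocyte-lineage ones were above background on both. Of the 11 T and NK cell markers 10 were above background on the first array and 4 on the second. The dimmest probe counted was at -5.88 on the first and at -5.12 on the second. Markers of other tissue differed between these arrays as well. Of 9 kidney markers 7 were lower on the first array and 2 higher, among them Slc12a1, a salt transporter of the thick ascending limb, at 3.74 and 6.68, and Slc5a2, a glucose transporter of the proximal tubule, at 7.29 and 2.49. Of the 4 tested genes listed for red blood cells, Hbb, Alas2 and Ahsp were higher on the first array. Slc4a1 was lower on it, at 0.89 and 3.57, as were 7 of the 9 kidney markers. The part of any of these cell types in the gap was not tested, and in whole grafts fewer cells of a type and less RNA per cell cannot be told apart.

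**Figure D2:**
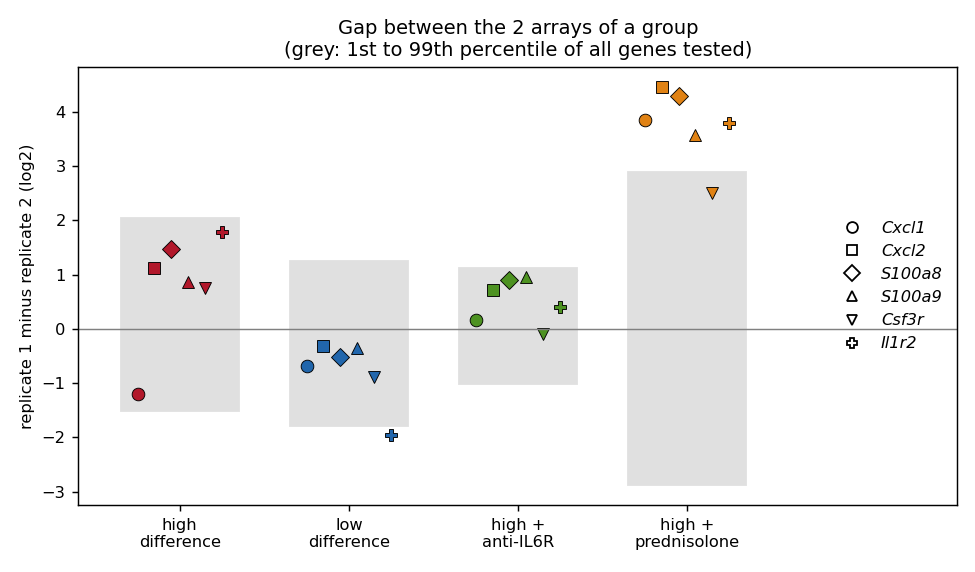
Log2 level of replicate 1 minus replicate 2 within each group for the 6 tested genes (points), set against the range of all 24461 genes without the extreme 1% at each end. In the prednisolone group all 6 points lie between 2.50 and 4.47, those of Cxcl2, Il1r2 and Csf3r against a second array at background, and that range runs from -2.89 to 2.89.

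The first comparison asked how a high weight difference between donor and recipient bears on the untreated graft. Cxcl1, Cxcl2 and S100a9 were higher in both high-difference grafts than in both low-difference grafts, by 2.82-fold, 2.59-fold and 2.12-fold, but no difference passed the test. The log2 difference (high minus low, with its standard error from limma) was 1.50 ± 1.15 for Cxcl1 (adjusted p = 0.54), 1.37 ± 1.32 for Cxcl2 (adjusted p = 0.61) and 1.08 ± 1.08 for S100a9 (adjusted p = 0.63). Group means of Cxcl1 were -0.16 ± 0.85 and -1.66 ± 0.48 (SD, n = 2 in each). The standard errors pool the spread of all 4 groups, and the prednisolone pair, not compared here, had the widest spread. Its SD was 2.72 for Cxcl1, 3.16 for Cxcl2 and 2.53 for S100a9. When limma was fitted on the 2 compared groups alone, the lowest adjusted p of the 6 genes was 0.245. Il1r2 differed by 0.56 ± 1.31 (adjusted p = 0.85) and S100a8 by 0.30 ± 1.31 (adjusted p = 0.92), both with overlapping arrays, and Csf3r was at background in both groups (adjusted p = 0.66).

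In limma's test 0 of the 6 genes passed at an adjusted p of 0.05 in this comparison, where 0% of all genes passed, and 0 of the 6 had an unadjusted p under 0.05, where 14% of all genes did. Arrays did not overlap for 3 of the 6, all higher in high-difference grafts, against 55.8% of all genes that did not overlap and 30.7% that did so with the high-difference group higher. The count of 3 is therefore near that background. The differences of Cxcl1, Cxcl2 and S100a9 stayed above 0 whichever array was left out, between 0.82 and 2.10 for the chemokines and between 0.65 and 1.52 for S100a9. That of S100a8 ran from -0.44 to 1.03 and that of Il1r2 from -0.42 to 1.53, so their direction depended on which array was left out. It turned for S100a8 without the first high-difference array and for Il1r2 without that array or without the first low-difference one. Over all genes, limma called 42 when the first high-difference array was left out and 29 when 1 of the prednisolone arrays was, and none of these was among the 6.

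Of the 11 monocyte-lineage markers 10 had a lower mean in high-difference than in low-difference grafts, Cd14 being the other one. High-difference arrays had summed marker levels of 15.7 and 11.6 and low-difference arrays of 28.5 and 47.1. The part of other cells in the differences of Cxcl1, Cxcl2 and S100a9 was not tested.

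The second comparison asked what anti-IL6R did to high-difference grafts. The chemokine arrays overlapped with the untreated ones: Cxcl1 differed by -0.55 ± 1.15 (anti-IL6R minus untreated, adjusted p = 0.83) and Cxcl2 by -0.07 ± 1.32 (adjusted p = 0.98). Standard errors of this size do not show that the levels were alike. S100a8 was higher in both treated grafts by 2.64-fold, a log2 difference of 1.40 ± 1.31 (adjusted p = 0.60), while S100a9 differed by 0.32 ± 1.08 (adjusted p = 0.89) with overlapping arrays. Il1r2 differed by 0.62 ± 1.31 (adjusted p = 0.83), and Csf3r was measured on both treated and neither untreated array (adjusted p = 0.34). The summed monocyte-lineage markers were at 57.2 and 39.9 under anti-IL6R against 15.7 and 11.6 untreated, and the T and NK cell markers at 2.58 and 1.97 against 0.666 and 0.608. Of the 11 T and NK cell markers all were above background on both treated arrays, but only 4 and 5 on the untreated ones. Cd3e and Cd4 entered the test only because both anti-IL6R arrays were well above background, so that count follows partly from the filter. The dimmest probe counted was at -5.93 and -6.25 on the treated arrays and at -5.52 and -5.33 on the untreated ones. The part of monocyte-lineage, T and NK cells in the values of S100a8 and Csf3r was not tested.

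Here limma called 0 of the 6 genes (0% of all genes), and 0 had an unadjusted p under 0.05 (16.6% of all genes). The pooled spread again included the prednisolone pair. With the 2 compared groups alone, the lowest adjusted p of the 6 genes in limma was 0.11. The arrays of 2 of the 6, S100a8 and Csf3r, did not overlap, both higher under anti-IL6R, against 59.2% of all genes in either direction, 25.6% higher and 33.5% lower. Csf3r entered the test only because both anti-IL6R arrays were well above background, so its higher level there follows partly from that filter. For the dim Csf3r probe the fitted direction turned when background was corrected with the normexp model. Leaving out 1 array in turn moved Cxcl1 between -1.15 and 0.055, Cxcl2 between -0.63 and 0.49, S100a9 between -0.16 and 0.80, and Il1r2 between -0.27 and 1.51.

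The prednisolone comparison asked the same of prednisolone, and its result turned on which treated graft was used. With both arrays, Cxcl1 differed from untreated high-difference grafts by -1.27 ± 1.15 (adjusted p = 0.67), Cxcl2 by -0.99 ± 1.32 (adjusted p = 0.77), S100a8 by 1.51 ± 1.31 (adjusted p = 0.65), S100a9 by 0.64 ± 1.08 (adjusted p = 0.82) and Il1r2 by 0.08 ± 1.31 (adjusted p = 0.99). Csf3r was measured on 1 of the treated and neither of the untreated arrays (adjusted p = 0.61). The arrays of all 6 genes overlapped, where 38.5% of all genes did not (14.9% higher and 23.6% lower). Limma called 0 of them (0% of all genes), and 0 had an unadjusted p under 0.05 (11.5% of all genes).

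Without the first prednisolone array all 6 fitted differences were below 0, with -3.19 for Cxcl1 (adjusted p = 0.079), -1.15 for S100a9 and -0.64 for S100a8. Cxcl2 and Il1r2 were at background on the array left, and untreated grafts were at least 3.84-fold higher for Cxcl2 (adjusted p = 0.073) and at least 2.75-fold higher for Il1r2 (adjusted p = 0.33). Without the second all 6 were above 0, with 3.66 for S100a8 (adjusted p = 0.10), 2.43 for S100a9 (adjusted p = 0.12), 1.97 for Il1r2, 1.24 for Cxcl2 and 0.65 for Cxcl1. The lone array left in the group is then taken to vary like the arrays of the other groups. The median of the 6 fitted differences was 0.36 with both arrays, -1.49 without the first and 2.12 without the second, so these data give no direction for prednisolone. The count of genes called over the whole array moved as well, from 0 to 221 without the first prednisolone array, to 20 without the second and to 36 without the first high-difference array.

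**Figure D3:**
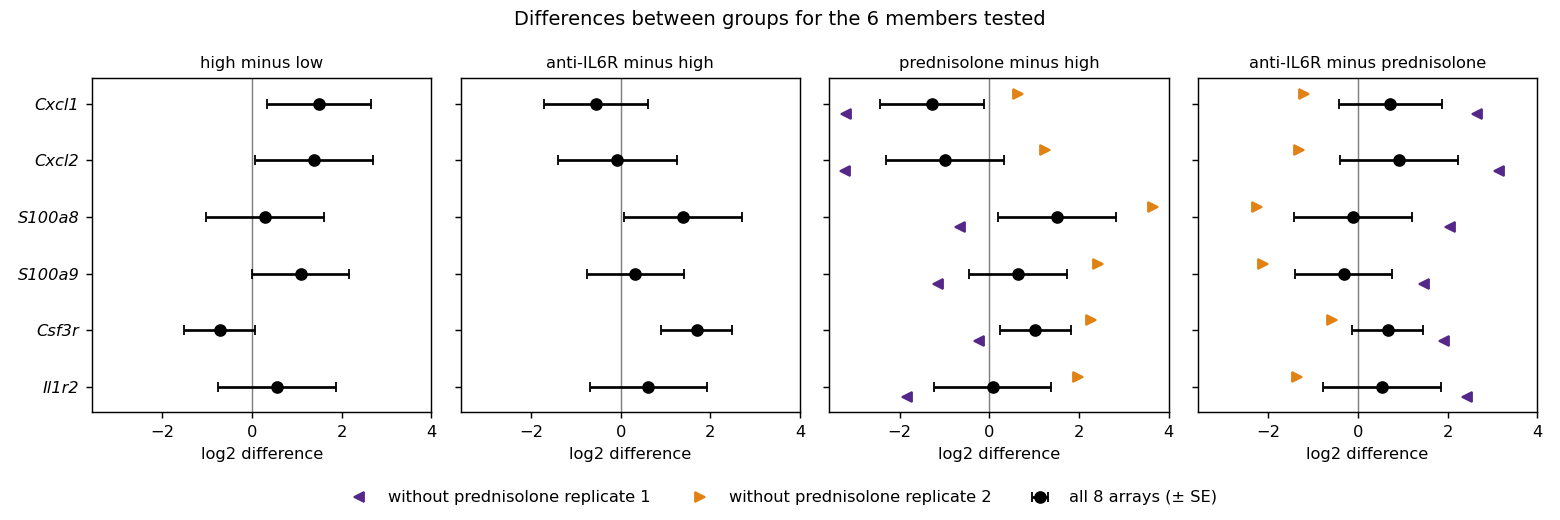
Log2 difference with its standard error for the 6 tested genes in each comparison from the fit of all 8 arrays, and, in the 2 comparisons with prednisolone, triangles for the fit without each prednisolone array. The triangles of each of the 6 genes lie on opposite sides of 0 there. Values of Csf3r against untreated grafts are fitted on arrays at background and stand for no fold. The same holds for the triangles of Cxcl2, Il1r2 and Csf3r without the first prednisolone array.

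The treatments were also set against each other, within 1 slide. Anti-IL6R minus prednisolone was 0.92 ± 1.32 for Cxcl2, 0.73 ± 1.15 for Cxcl1, 0.67 ± 0.79 for Csf3r, 0.54 ± 1.31 for Il1r2, -0.11 ± 1.31 for S100a8 and -0.32 ± 1.08 for S100a9, each with an adjusted p of 0.9994 in limma. All 6 overlapped, where 25.4% of all genes did not (13.2% higher and 12.1% lower). Limma called 0 of the 6 (0% of all genes), and 0 had an unadjusted p under 0.05 (3.47% of all genes). All 6 fitted differences were above 0 without the first prednisolone array, with 1.47 for S100a9, 2.04 for S100a8 and 2.65 for Cxcl1. Those of Cxcl2, Il1r2 and Csf3r rest there on a prednisolone array at background and stand for no fold. All 6 were below 0 without the second, from -2.26 to -0.58. With both arrays and the normexp background correction, Cxcl2, Il1r2 and Csf3r turned below 0, to -0.15, -0.16 and -0.18. These 4 comparisons share arrays, the high-difference pair entering 3 of them, and are therefore not independent of each other.

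The likeness of patterns was measured for the 3 members above background on all 8 arrays, as the root mean square difference between centred log2 levels over the 8 arrays, across 10285 genes with a symbol. S100a9 was closest to Gpnmb, a macrophage glycoprotein, at 0.22, followed by S100a8 at 0.47 and the chemokine receptor gene Ccr1 at 0.52, where the median gene was at 1.18. Gpnmb had levels of 2.48 and 1.91 in high-difference, 0.57 and 1.55 in low-difference, 2.89 and 2.27 in anti-IL6R and 4.42 and 1.25 in prednisolone grafts, with the same split of the prednisolone pair. S100a8 was closest to S100a9, then to Gpnmb at 0.55 and the chemokine gene Ccl3 at 0.63.

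Cxcl1 had other nearest genes: Nabp1 at 0.35, Adamts1, a secreted protease, at 0.36 and Nfkbiz, an inducible regulator of NF-kB, at 0.37, where the median gene was at 1.20. S100a9 was at 0.91 from Cxcl1, place 510 in that order, and S100a8 at 1.24, place 6109. One feature that set Cxcl1, Nabp1, Adamts1 and Nfkbiz apart from S100a9 was a second high-difference array above the first. It was at 0.44 against -0.76 for Cxcl1 and 0.12 against -1.11 for Nfkbiz, while S100a9 was higher on the first. The prednisolone arrays also differed: Cxcl1 was lowest on the second of them, at -3.36, and S100a9 was lowest on the first low-difference array, at -3.29.

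**Figure D4:**
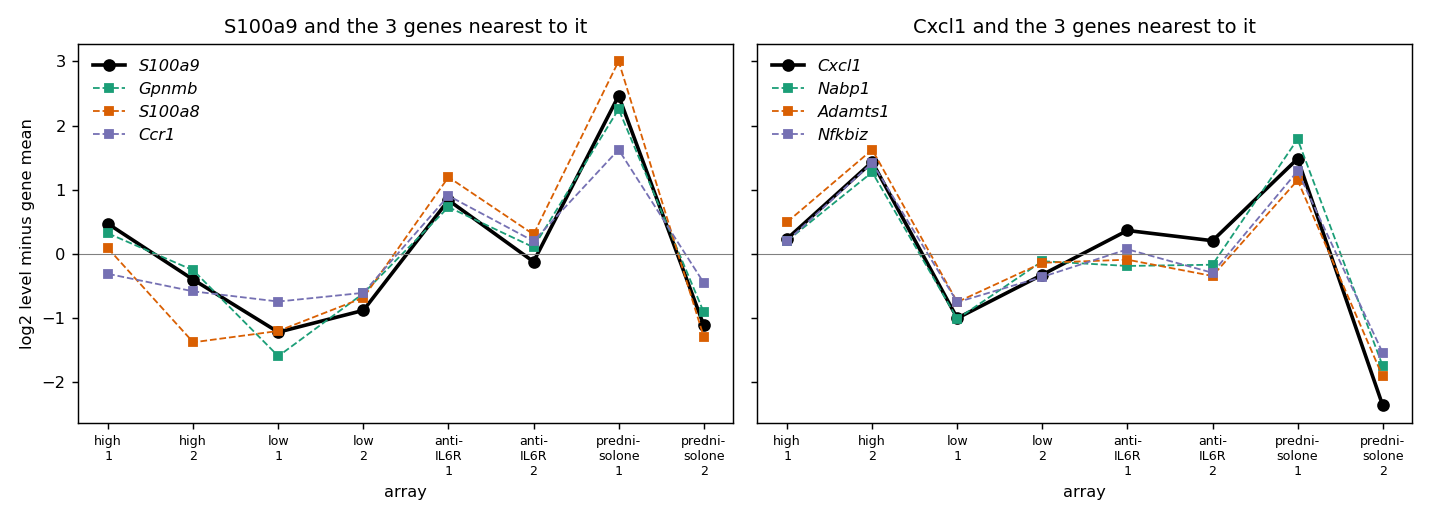
Log2 level minus each gene's mean over the 8 arrays, for S100a9 and Cxcl1, each with the 3 genes closest to it. S100a8 is shown as a neighbour of S100a9. S100a9 and its neighbours have the second high-difference array below the first, and Cxcl1 and its neighbours have it above.

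The wider neutrophil pathway was described through 60 further genes, of which 54 had a probe and 38 were tested. Limma called 0 of the 38 in any comparison, and 10, 15, 8 and 0 of them had an unadjusted p under 0.05 in the high-to-low, anti-IL6R, prednisolone and treatment-to-treatment comparison, where 14%, 16.6%, 11.5% and 3.47% of all genes did. The differences of the list had a median of -0.76 between high-difference and low-difference grafts, with 30 of 38 below 0, against a median of 0.04 over all genes. Under anti-IL6R 34 of 38 were above the untreated high-difference level, with a median of 1.22 (all genes -0.05), and under prednisolone 32 of 38, with a median of 0.76 (all genes -0.06). Arrays did not overlap for 20 genes that were lower and 5 that were higher in high-difference than in low-difference grafts, against 25.1% and 30.7% of all genes. Under anti-IL6R 28 genes were higher without overlap, against 25.6% of all genes, and 3 were lower. Some of the higher ones, Trem1 and Lilrb3 among them, entered the test only because both anti-IL6R arrays were well above background. With the normexp background correction 24 of 38 were below 0 between high-difference and low-difference grafts and 26 of 38 above 0 under anti-IL6R, and the medians were -0.24, 0.38 under anti-IL6R and 0.21 under prednisolone. Many of these genes are shared with monocytes, and 10 of the 11 monocyte-lineage markers were lower in high-difference than in low-difference grafts and 11 of 11 higher under anti-IL6R than untreated, with summed levels of 11.6 to 15.7 in high-difference, 28.5 to 47.1 in low-difference and 39.9 to 57.2 in anti-IL6R grafts. Their part in the list's differences was not tested.

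Among the chemokines and their receptors only Cxcl3 and Pf4 were tested. Cxcl3, another ligand of CXCR2, was at -4.25 and -4.99 in high-difference and at -6.44 and -5.62 in low-difference grafts, a log2 difference of 1.41 ± 0.95 (adjusted p = 0.49). Its tested probe was not well above background on the first low-difference array, and the difference ran from 0.52 to 1.55 over the processing alternatives. Another Cxcl3 probe was not well above background on any of the 8 arrays. The tested probe was at -2.92 and -6.02 under prednisolone, split like Cxcl1 and Cxcl2, but the second of these arrays was not well above background. Under anti-IL6R Cxcl3 differed by 0.05 ± 0.95 (adjusted p = 0.98). The receptor genes Cxcr1 and Cxcr2 were not tested, nor was Csf3, which encodes the ligand of CSF3R.

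In the interleukin-1 and TNF group the 7 tested genes had a median of -0.04 between high-difference and low-difference grafts, with 3 above 0 and 4 below. Il1b, the cytokine that IL1R2 takes up, was at -1.48 and -1.84 in high-difference, -0.90 and -0.84 in low-difference, 0.24 and -0.53 in anti-IL6R, and 0.61 and -1.77 in prednisolone grafts. Both high-difference arrays were below both low-difference and both anti-IL6R arrays, by -0.79 ± 0.72 (high minus low, adjusted p = 0.60) and 1.51 ± 0.72 (anti-IL6R minus high, adjusted p = 0.35). Tnfrsf1a, a receptor for TNF, lay the other way, at 0.90 ± 0.43 (high minus low, adjusted p = 0.38).

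The granule proteins were mixed: of 9 tested, 3 were above and 6 below 0 between high-difference and low-difference grafts, with a median of -0.34. Lcn2, which encodes an iron-scavenger carrier of neutrophil granules and of injured tubules, was at -1.89 and 0.33 in high-difference against -3.86 and -2.76 in low-difference grafts, 2.53 ± 0.98 apart (adjusted p = 0.35). Its difference from untreated high-difference grafts was -1.62 ± 0.98 under anti-IL6R (adjusted p = 0.42) and -2.05 ± 0.98 under prednisolone (adjusted p = 0.47), where the arrays overlapped. Lyz2, the lysozyme of neutrophils and macrophages, lay the other way, at 2.91 and 2.31 in high-difference, 4.56 and 5.01 in low-difference and 5.45 and 4.94 in anti-IL6R grafts. Its difference was -2.17 ± 0.61 (high minus low, adjusted p = 0.33) and 2.59 ± 0.61 (anti-IL6R minus high, adjusted p = 0.21).

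The tested surface receptors and adhesion molecules lay on one side, with 8 of 8 below 0 between high-difference and low-difference grafts (median -1.30) and 8 of 8 above 0 under anti-IL6R (median 2.28) and under prednisolone (median 1.76). Trem1, Selplg and Lilrb3, dim on the high-difference arrays, crossed 0 with the normexp background correction. Trem1 and Lilrb3 were tested only through the anti-IL6R arrays, so being higher there follows partly from that filter. Itgal, the alpha chain of the integrin LFA-1 that lymphocytes also carry, was not well above background on either high-difference array. In low-difference grafts it was higher by at least 5.06-fold (adjusted p = 0.32), at least 8.16-fold higher under anti-IL6R (adjusted p = 0.19) and at least 4.91-fold higher under prednisolone (adjusted p = 0.34), each bound set against the dimmest measurable probes. Fcgr3a, a receptor for immunoglobulin G, was at -1.33 and -1.78 in high-difference, 0.49 and 1.28 in low-difference and 1.45 and 1.19 in anti-IL6R grafts, with differences of -2.44 ± 0.75 (high minus low, adjusted p = 0.33) and 2.88 ± 0.75 (anti-IL6R minus high, adjusted p = 0.21). Itgam, the alpha chain of the integrin Mac-1 on neutrophils and macrophages, differed by 2.54 ± 0.85 under anti-IL6R (adjusted p = 0.26). The Itgam probe was not well above background on the second high-difference array, at -5.53.

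Of the NADPH oxidase, which makes superoxide in phagocytes, Cybb, the catalytic subunit, differed by -2.57 ± 0.68 (high minus low, adjusted p = 0.33) and by 2.81 ± 0.68 under anti-IL6R (adjusted p = 0.21), and Ncf1, a cytosolic subunit, by -1.70 ± 0.52 (adjusted p = 0.33) and 1.81 ± 0.52 (adjusted p = 0.23). Cybb was not well above background on the second high-difference array, at -6.27, so both its differences rest partly on a background value. All 6 tested signalling genes were below 0 between high-difference and low-difference grafts and above 0 under both treatments. Of these, Padi4, Fgr and Ptgs2 crossed 0 in at least 1 comparison when 1 array was left out. Alox5, the enzyme that starts leukotriene synthesis, was higher than in untreated high-difference grafts under both treatments. The bound was at least 1.46-fold under anti-IL6R (adjusted p = 0.18) and at least 2.15-fold under prednisolone (adjusted p = 0.30). With the one or the other prednisolone array left out, limma called 4 of the 38 genes higher under anti-IL6R, Fcgr3a (adjusted p = 0.038), Itgal (adjusted p = 0.043), Lyz2 (adjusted p = 0.043) and Trem1 (adjusted p = 0.0496), and 192 of all genes. Trem1, an amplifying receptor of neutrophils and monocytes, was not well above background on the high-difference arrays, and its direction under anti-IL6R turned to -0.10 with the normexp background correction.

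In the treatment-to-treatment comparison 31 of the 38 genes were higher under anti-IL6R, with a median of 0.42, and the count was 9 without the second prednisolone array and was 33 without the first. Against untreated grafts, 25 of the 38 were higher under prednisolone without the first prednisolone array and 33 without the second. The genes of the list with the smallest p between the treatments were Olfm4 at -0.63 ± 0.30, Np4 at 0.38 ± 0.19 and Il17ra at 0.61 ± 0.31, with an adjusted p of 0.9994 for each.

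**Figure D5:**
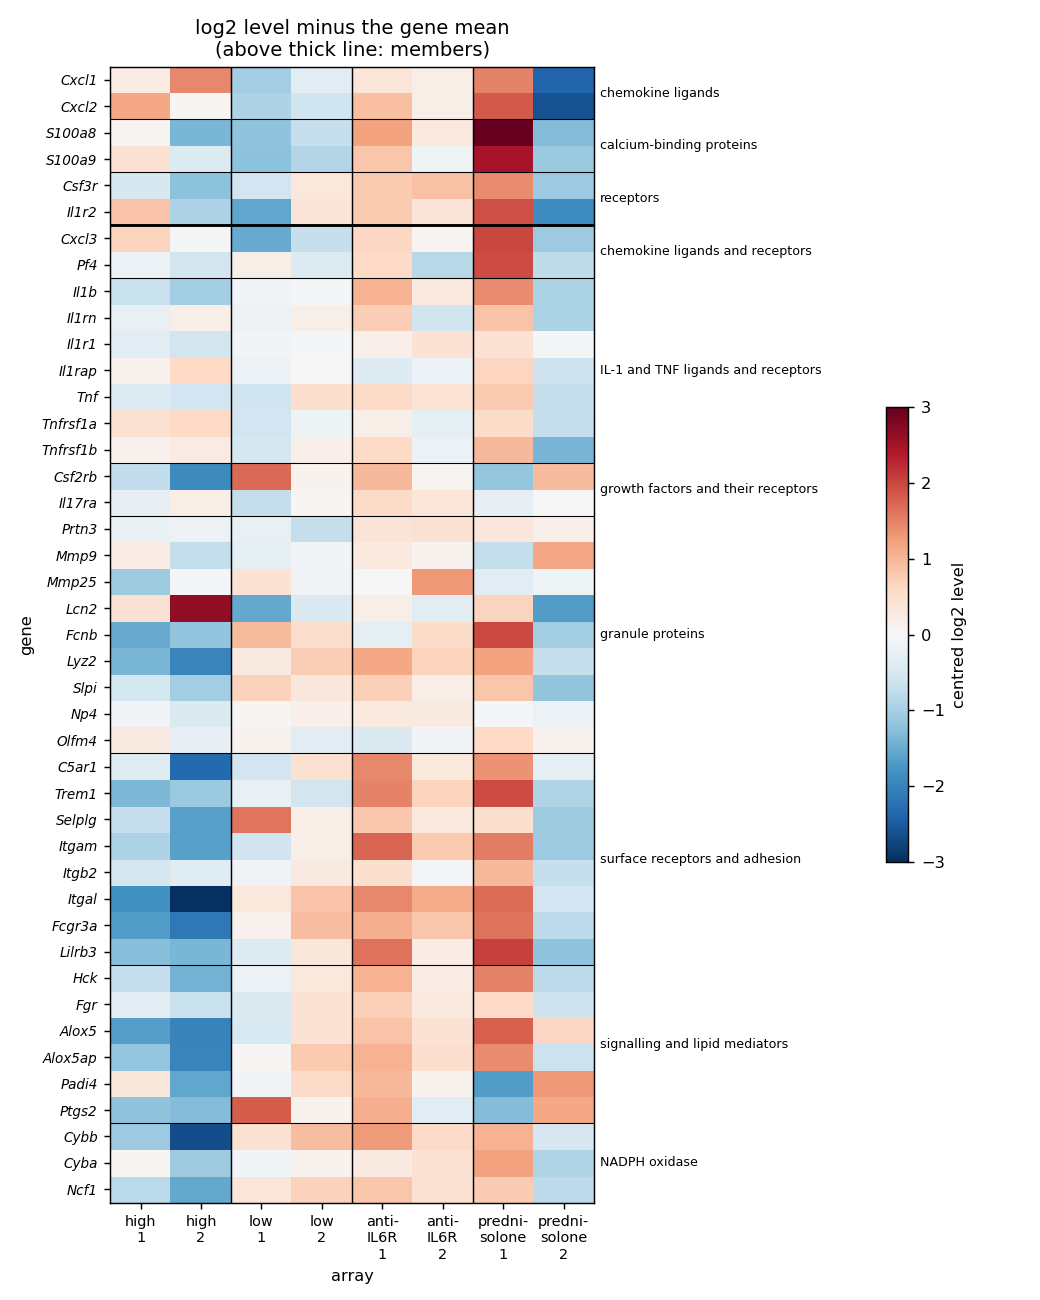
Log2 level minus each gene's mean over the 8 arrays for the 6 tested members and the tested further genes but 1, arrays in columns and genes in rows by subgroup. Cxcl1, Cxcl2 and S100a9 are higher on the high-difference than on the low-difference arrays, and 7 of the 8 surface receptor genes are lower there without overlap, against 25.1% of all genes. The colour scale ends at -3 and 3.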

How the data were processed

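RNA of 8 grafts, 2 for each of 4 groups, was labelled with Cy3 from 1 µg of total RNA, per the labels' protocols. Per the file headers, spots were read by version 9.5.1.1 of Agilent's Feature Extraction. The deposited processed signal intensity is background-subtracted within each array, per the file headers, and not scaled between arrays. The authors' deposited value table holds the same intensity times 1 factor per array, except for 1338 zeros.

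Control spots and outlier spots were left out, repeated spots averaged, and log2 signals centred on each array's 75th percentile. Probes entered the test when both arrays of some group had them well above background (28685 of 41012 probes), and a gene was represented by its brightest probe (24461 genes). Names came from the files, updated through RefSeq's GRCr8 gene table (10735 probes by accession, 5577 by symbol, 3730 by synonym), and promoter sequences came from RefSeq's GRCr8 table, which held 6 of the 8 members. Promoters of S100a8 and Il1r2 were not used here. Tests used limma 3.58.1 (R 4.3.3; lmFit, eBayes), in 1 fit of all 8 arrays with 4 residual degrees of freedom and 2.38 prior ones, and Benjamini-Hochberg adjustment of p ran over all tested genes, with a threshold of 0.05. The method was tested on simulated data. The number of arrays limits the precision.

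Where neither array of a group had a probe well above background, a bound is given in place of a fold. For each dim array it takes the dimmest probe still well above background, or the probe itself if that is brighter, and sets their mean against the brighter group's mean. The text names all members, and, in each comparison, up to 3 further genes per subgroup with the smallest p, with Cxcr2, Csf3, Il1b and Lcn2 throughout, and for each member above background on all arrays the 3 genes closest in pattern. Trem1 was named after its values were seen. Members, lists and tests were chosen with earlier results of these data known, although no measured value enters the rule for the members. Groups came from the labels, and replicate numbers did not pair samples. Per-sample columns left unmapped numbered 0. One gene of the wider list is counted with it but not reported here.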

Additional observations from a re-analysis of the deposited data

Results flagged for a closer look

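One signal lay outside the measurements used in the comparisons. A second S100a8 probe (A_44_P674704), designed on an expressed sequence tag listed in the opposite direction to the RefSeq probe, was well above background on the first prednisolone array at -5.56, while its other 7 values were not well above background and lay between -8.52 and -6.99. The RefSeq probe was highest on the same array, at -0.38.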

How the results depend on the processing

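No member passed at 0.05 in any comparison under any of the 10 processing alternatives or with any of the 8 arrays left out, the lowest adjusted p in limma being 0.073. Genes called over the whole array, 0 in each comparison, were 3, 7, 4 and 2 (high minus low, anti-IL6R minus high, prednisolone minus high, anti-IL6R minus prednisolone) after quantile normalization, and 1 each in the first and second comparison with median scaling. They ranged over left-out arrays from 0 to 42, 0 to 192, 0 to 221 and 0 to 132. With the normexp background correction Csf3r turned to 0.21, -0.23, -0.054 and -0.18 in the same order, Il1r2 to -0.0077 (anti-IL6R minus high) and -0.16 (anti-IL6R minus prednisolone), Cxcl2 to -0.15 (anti-IL6R minus prednisolone), and the median of the wider list was -0.24 in high minus low, 0.38 in anti-IL6R minus high and 0.21 in prednisolone minus high. The cause was not tested. The other 221 member values under processing alternatives kept their direction. The normexp correction also moved the median of all genes by -0.13 in anti-IL6R minus high, and testing without a filter on dim probes moved it by 0.11 in high minus low.

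Leaving out 1 array in turn gave fitted differences of -0.44 to 1.03 for S100a8 and -0.42 to 1.53 for Il1r2 in high minus low. In anti-IL6R minus high it gave -1.15 to 0.055 for Cxcl1, -0.63 to 0.49 for Cxcl2, -0.16 to 0.80 for S100a9 and -0.27 to 1.51 for Il1r2. In prednisolone minus high the ranges were -3.19 to 0.65 for Cxcl1, -3.23 to 1.24 for Cxcl2, -0.64 to 3.66 for S100a8, -1.15 to 2.43 for S100a9, -0.22 to 2.27 for Csf3r and -1.82 to 1.97 for Il1r2, and 0.23 to 1.51 for the median of the wider list. In anti-IL6R minus prednisolone they were -1.20 to 2.65 for Cxcl1, -1.31 to 3.16 for Cxcl2, -2.26 to 2.04 for S100a8, -2.11 to 1.47 for S100a9, -0.58 to 1.92 for Csf3r and -1.36 to 2.44 for Il1r2, and -0.44 to 1.16 for that median.

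Replicates of different groups shared only a number: deviations of same-numbered arrays correlated between -0.35 and 0.37 over pairs of groups. With the replicate number as a block limma called 0 genes in each of the 4 comparisons. Requiring a signal well above background on all 8 arrays left no value for Cxcl2, Csf3r and Il1r2. Signal over background limits Csf3r, Mmp8 and Mpo most.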

Other observations

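Several genes of the wider list that were too dim to be tested were measured on a single array, and they are named here after their values were seen. Cxcr2, the receptor of the chemokines, was well above background only on the second prednisolone array, at -4.54, where Cxcl1, Cxcl2 and S100a9 were low or lowest. Camp, a granule peptide, was measured only on the first prednisolone array, at -5.38, and another Camp probe was not well above background on any array. Csf3 and the granule gene Ngp were measured only on the second high-difference array, both at -5.12, and the granule protease gene Ctsg only on the first high-difference array, at -5.26. With 1 array each, these values have no replicate.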
